A study of Mus musculus with 6 samples.

Results

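Transcript levels of 10 genes of interleukin-2 (IL-2) and common gamma chain signalling were examined in mouse CD8+ T cells with and without trans-vaccenic acid (TVA), which comes mainly from ruminant meat and milk. The genes were taken by symbol, and all 10 were present among the 24589 genes of the table: Il2, the receptor chain genes Il2ra, Il2rb, Il2rg, Il15ra, Il7r and Il21r, and the signal transducers Jak3, Stat5a and Stat5b. The libraries came from primary wild-type (WT) mouse CD8+ T cells, which in the study's methods were purified with magnetic beads from C57BL/6 spleens and lymph nodes. Cells of both groups were activated with antibodies to CD3 and CD28 in culture. They were then kept for 24 h with 20 µM TVA (TVA group, 3 libraries) or with DMSO, the solvent control (DMSO group, 3 libraries). The study's methods say that adult mice of either sex, matched for sex and age, served throughout, and the labels give neither for these libraries. The final DMSO concentration is not given in the sources used here. Nothing in the labels says that the 3 libraries of a group came from separate mice or cultures, so the P values below measure the spread between these libraries, which may be technical. The cells were stimulated by antibody, and TVA was given at a single dose and for a single time.

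IL-2 is a growth factor that activated T cells make and take up again. It binds a receptor of the alpha chain (IL2RA, or CD25), which raises affinity, the beta chain (IL2RB) and the common gamma chain (IL2RG). The gamma chain is shared with the receptors for IL-4, IL-7, IL-9, IL-15 and IL-21. It carries the kinase JAK3, which works with JAK1 to phosphorylate STAT5A and STAT5B, and the phosphorylated STAT proteins enter the nucleus and switch on genes for survival, growth and cytotoxic function. In CD8+ T cells, the strength of this signal is known to shift the balance between effector and memory cells. Transcript levels, as measured here, say nothing of receptor protein at the surface or of STAT5 phosphorylation.

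Values are TPM, a transcript level scaled for transcript length and to the same total in each library, so that levels can be compared between genes. Sequencing depth is unknown from TPM, and no counting error can be given. Changes are differences in log2(TPM + 1), TVA minus DMSO, from limma over the 10866 genes that reached 1 TPM in at least 3 libraries, with Benjamini–Hochberg adjustment over all of them and a threshold of 0.05. The added 1 shrinks the changes of genes at low TPM. The median change of all genes tested was 0.04.

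Some properties of the libraries touch the results below. DMSO replicate 2 had its lowest correlation with a TVA library at 0.996, and correlated with DMSO replicates 1 and 3 at 0.993 and 0.995. The change of a gene with TVA fell with the GC content of its transcripts (Spearman's rho -0.40 across genes, which are not independent replicates), and DMSO replicates 1 and 3 also differed along GC content (rho 0.62). Values without DMSO replicate 2 and after a GC correction are therefore given beside the results of Il2, Il21r and Stat5a. For the other genes only some of these values are given. The 6 CD8 T cell markers summed to between 1670 and 1800 TPM in the DMSO libraries and to between 1912 and 1943 TPM in the TVA libraries, with Cd3g higher (limma adjusted P = 0.0063), against 11.4 to 15.6 TPM for 3 CD4 T cell markers, 3.36 to 4.07 TPM for 2 regulatory T cell markers and 10.7 to 14.9 TPM for 5 B cell markers. The 3 natural killer (NK) cell markers summed to between 0.72 and 1.08 TPM with DMSO and to between 0.23 and 0.69 TPM with TVA, 7 myeloid markers to between 41.5 and 56.5 TPM and 3 red cell genes to between 9.10 and 28.9 TPM. No marker was listed at 0 in all 6 libraries. The part of these markers in the results was not tested.

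The Il2 promoter is shown because Il2 had the smallest P value of the 10 genes, and the Il2ra promoter is shown beside it because the product is the chain that raises affinity for IL-2. Both are the 250 bases before the start of transcription, 5′ to 3′ on the strand of the gene, from RefSeq on GRCm38.p6. The Il2 window is chr3:37125955-37126204 on the minus strand, and the Il2ra window is chr2:11642542-11642791 on the plus strand. Capitals in the Il2 and Il2ra windows mark exact matches to the core motif of NFAT (GGAAA, or its reverse complement on the other strand). In the Il2 window they also mark a TATA box (TATAA).
Il2: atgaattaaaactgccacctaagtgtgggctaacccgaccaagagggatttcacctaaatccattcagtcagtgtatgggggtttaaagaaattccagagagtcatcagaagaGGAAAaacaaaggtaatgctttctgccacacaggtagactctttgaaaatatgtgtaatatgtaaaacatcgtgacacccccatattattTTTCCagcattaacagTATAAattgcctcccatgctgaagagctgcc
Il2ra: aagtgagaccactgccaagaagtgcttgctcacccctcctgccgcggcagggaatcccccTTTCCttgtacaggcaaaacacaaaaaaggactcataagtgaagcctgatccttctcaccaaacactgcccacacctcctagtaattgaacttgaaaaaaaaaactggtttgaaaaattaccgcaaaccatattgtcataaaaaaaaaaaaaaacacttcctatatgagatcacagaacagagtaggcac
Both strands were searched for the NFAT core, the TATA box and 3 further motifs. For AP-1 the motif was TGA and TCA with any base between them. For the cAMP response element it was the partial site TGACG. For STAT proteins it was TTCNNNGAA. The Il2 window held the NFAT core from 137 to 133 bases before the start, its reverse complement from 47 to 43 bases before it, and the TATA box from 31 to 27 bases before it. The Il2ra window held the reverse complement of the NFAT core from 190 to 186 bases before the start and no TATA box. Neither window held the AP-1, cAMP response element or STAT motif, and no match overlapped another. Of all 32851 promoter windows of this length, 55.6% held the NFAT core, 22.8% the TATA box, 17.8% the cAMP response element motif, 7.02% the STAT motif and 6.75% the AP-1 motif, so that the NFAT core is common and the matches are only a description. RefSeq windows were found for 9 of the 10 genes (12 windows), and the STAT motif occurred in the window of Il7r alone.

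Il2 and Stat5a transcripts fell with TVA and Il21r transcripts rose, and the other 7 genes did not pass the threshold. These 3 of 10 genes (1 higher, 2 lower) stand against a background of 8.51% of all genes tested that passed (5.28% higher and 3.23% lower). The 3 TVA and 3 DMSO libraries did not overlap for 7 of the 10 genes: TVA lay above DMSO for Il2ra, Il2rg and Il21r, and below it for Il2, Jak3, Stat5a and Stat5b. Groups without overlap made up 38.6% of all genes tested, 27.3% with TVA above and 11.2% with TVA below. The median change of the 10 genes was 0.01, beside 0.04 for all genes, so the group as a whole had no common direction.

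**Figure D1:**
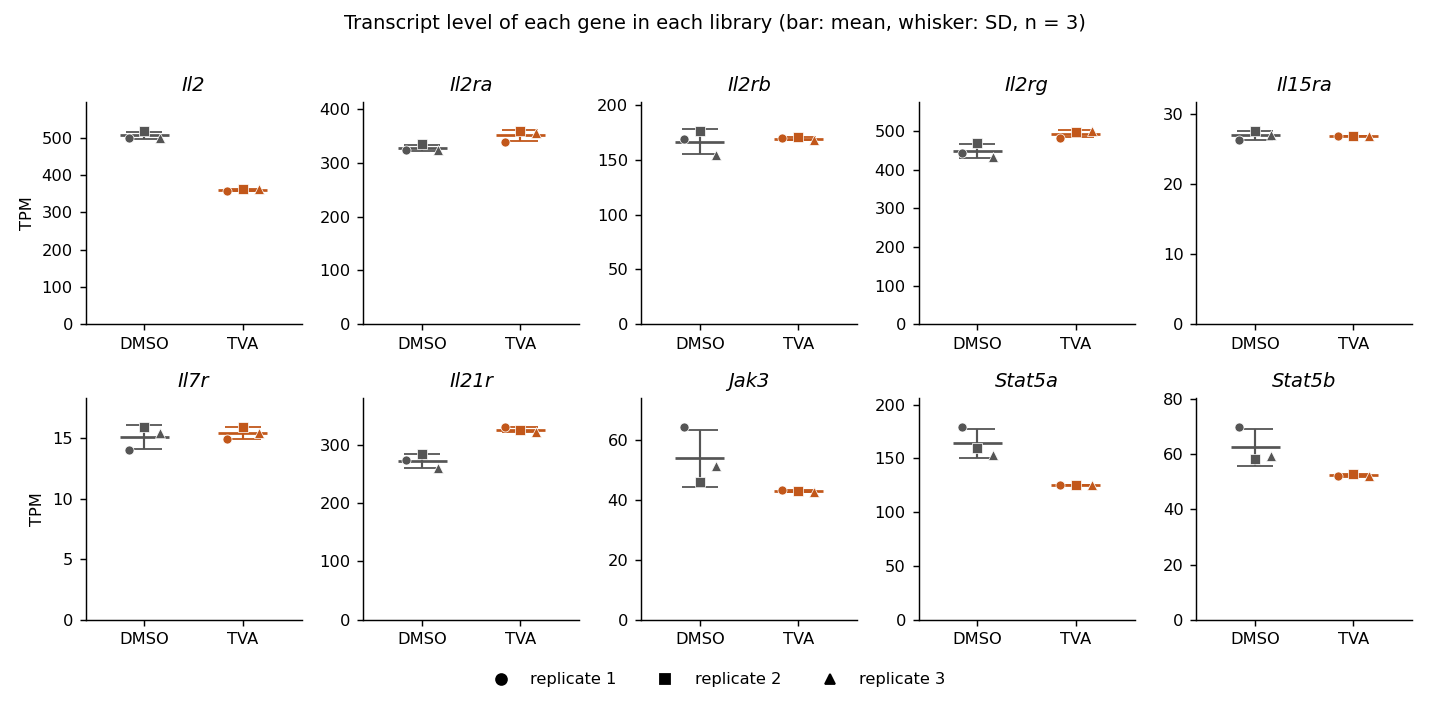
TPM of each of the 10 genes in every library, with DMSO (grey) and TVA (orange) on the horizontal axis, replicates by symbol, the mean as a bar and the s.d. as whiskers (n = 3). Each vertical axis starts at 0 and has its own range. Il2 lies near 505 TPM with DMSO and near 360.2 TPM with TVA, and the DMSO points of Jak3, Stat5a and Stat5b are spread more widely than the TVA points.

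The ligand showed the largest change of the 10 genes. Il2 (chr3:37120523-37125959, minus strand, 4 exons) stood at 499.6, 517.3 and 499.6 TPM in the DMSO libraries and at 357.1, 361.4 and 362.0 TPM in the TVA libraries. The groups lay far apart relative to their spread, with means of 505 ± 10.2 and 360.2 ± 2.63 TPM (s.d., n = 3), and the mean fell by 28.8%. The log2 change was -0.49 (SE 0.034, 95% interval -0.57 to -0.41, limma adjusted P = 0.00072). By P value, Il2 ranked 12 among all 10866 genes tested, but by the size of its change it was 119th of the 351 genes that fell. It remained an abundant transcript, between places 232 and 244 of 24589 in the DMSO libraries and between 359 and 367 in the TVA libraries. Without DMSO replicate 2, the change of Il2 was -0.47 (limma adjusted P = 0.00019), and after the GC correction it was -0.59 (limma adjusted P = 0.00030). Il2 passed the threshold under all 15 alternatives tried, with adjusted P between 0.00019 and 0.014. In bulk RNA, fewer cells that make Il2 and less Il2 RNA per cell cannot be told apart. CD4 T cells also make IL-2, and the 3 CD4 T cell markers summed to between 14.6 and 15.6 TPM with DMSO and to between 11.4 and 13.3 TPM with TVA. Of them, Cd40lg fell (log2 change -0.33, SE 0.067, limma adjusted P = 0.030) and Cd4 itself was at 4.25, 4.46 and 3.80 TPM with DMSO and at 3.62, 3.64 and 3.33 TPM with TVA (limma adjusted P = 0.12). Their part in the Il2 result was not tested.

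The other cytokines that signal through the gamma chain were much scarcer than Il2. Of the 6 gamma chain cytokine genes, Il2 included, 3 passed the filter on low values (Il2, Il4 and Il9). All 3 fell with TVA (median change -0.57). Il9 transcripts were at 4.44, 7.20 and 5.71 TPM with DMSO and at 1.89, 2.03 and 1.52 TPM with TVA. This was the largest change among the gamma chain cytokines (log2 change -1.25, SE 0.15, limma adjusted P = 0.0055), and it held under all 14 alternatives in which Il9 was tested. Il4, the T helper 2 cytokine, stood at 10.1, 11.3 and 12.1 TPM with DMSO and at 8.13, 6.58 and 6.92 TPM with TVA. Its groups did not overlap (log2 change -0.57, SE 0.088, limma adjusted P = 0.016), but without a replicate the adjusted P ranged from 0.011 to 0.081, and without DMSO replicate 3, TVA replicate 2 or TVA replicate 3 it missed the threshold. Il21 was below the filter, at 0.46, 0.40 and 0.55 TPM with DMSO and at 0.09, 0.11 and 0.04 TPM with TVA, and was not tested. Il15 (0.17 to 0.38 TPM) and Il7 (0.03 TPM or less), made mainly by other cell types, were not tested either. Il4, Il9 and Il21 are best known from CD4 T helper cells, whose markers are given above, and the part of such cells in these values was not tested.

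The 3 chains of the IL-2 receptor did not pass the threshold. Il2ra (chr2:11642807-11693193, plus strand) encodes the alpha chain and was at 323.6, 334.0 and 323.8 TPM with DMSO and at 339.4, 358.9 and 354.7 TPM with TVA. All TVA libraries lay above all DMSO libraries, by a small margin (log2 change 0.10, SE 0.038, 95% interval 0.01 to 0.19, limma adjusted P = 0.12). After the GC correction the groups overlapped and the change was 0.03 (limma adjusted P = 0.50). Il2rg (chrX:101264378-101268255, minus strand) encodes the common gamma chain and was at 441.7, 467.6 and 432.6 TPM with DMSO and at 482.6, 496.2 and 499.4 TPM with TVA. The groups again did not overlap, and the change was 0.14 (SE 0.041, 95% interval 0.04 to 0.24, limma adjusted P = 0.070). It passed the threshold under 1 of 15 alternatives, the omission of DMSO replicate 2 (log2 change 0.17, limma adjusted P = 0.018). Il2rb (chr15:78479256-78495271, minus strand) encodes the beta chain shared by the IL-2 and IL-15 receptors. Its TPM values were 168.9, 176.3 and 154.1 with DMSO and 169.7, 170.7 and 167.7 with TVA, so that the TVA values lay inside the DMSO range. The interval of its change, -0.09 to 0.15 on the log2 scale, limits a rise to 1.11-fold and a fall to 0.937 times the DMSO level.

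Among the receptor chains for other cytokines, Il21r rose. Il21r (chr7:125603429-125633570, plus strand), the chain specific for IL-21, was at 273.3, 283.3 and 260.0 TPM with DMSO and at 330.6, 324.6 and 321.2 TPM with TVA. The means were 272.2 ± 11.7 and 325.5 ± 4.78 TPM (s.d., n = 3), 19.6% higher with TVA. The log2 change was 0.26 (SE 0.042, 95% interval 0.16 to 0.35, limma adjusted P = 0.016), the 226th largest of the 574 genes that rose. Il21r passed under 12 of 15 alternatives, with a change of 0.29 without DMSO replicate 2 (limma adjusted P = 0.0036) and 0.28 after the GC correction (limma adjusted P = 0.0098). Without TVA replicate 1, 2 or 3 the adjusted P was 0.081, 0.095 or 0.089, with changes of 0.25 to 0.27. Its ligand, Il21, was nearly absent, as given above.

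Il15ra and Il7r differed little between the groups. Il15ra (chr2:11705290-11734317, plus strand), the chain that presents IL-15, was at 26.3, 27.6 and 27.1 TPM with DMSO and at 26.9 TPM in all 3 TVA libraries. The groups overlapped, and the change was -0.0063 (95% interval -0.10 to 0.08, limma adjusted P = 0.92). Il7r (chr15:9505788-9530176, minus strand) encodes the IL-7 receptor alpha chain, which is high on naive and memory cells and is lowered by activation. It was the least abundant of the 10 genes, at 14.01, 15.91 and 15.39 TPM with DMSO and at 14.95, 15.94 and 15.44 TPM with TVA. The change of Il7r was 0.03 (95% interval -0.10 to 0.16, limma adjusted P = 0.73), and after the GC correction it was -0.06 (limma adjusted P = 0.31). Il15ra is also made by myeloid cells, and the 7 myeloid markers summed to between 41.5 and 45.2 TPM with DMSO and to between 55.0 and 56.5 TPM with TVA, with Lyz2 higher (log2 change 0.38, limma adjusted P = 0.0076). Their part in the Il15ra level was not tested. Of the partner chains outside the 10 genes, Il4ra, which pairs with the gamma chain for IL-4, was at 101.6, 89.4 and 83.9 TPM with DMSO and at 88.0, 89.3 and 87.7 TPM with TVA (log2 change -0.05, limma adjusted P = 0.64), and Il9r was at 0.08 TPM or less and was not tested.

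**Figure D2:**
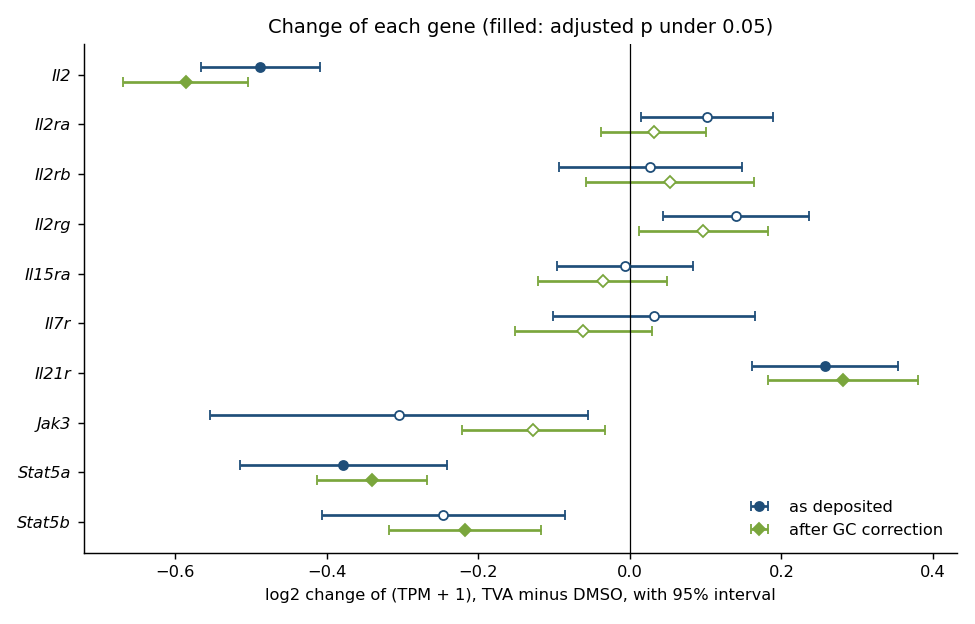
Change of each of the 10 genes in log2(TPM + 1), TVA minus DMSO, with its 95% interval, for the TPM as deposited (blue circles) and after the GC correction (green diamonds). Filled symbols passed the adjusted P of 0.05. The interval of Jak3 is the widest as deposited, and its change moves from -0.31 to -0.13 with the correction, while Il2, Il21r and Stat5a stay filled on both.

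Of the signal transducers, Stat5a fell, and Stat5b and Jak3 were lower without passing the threshold. Stat5a (chr11:100859351-100885169, plus strand) was at 179.5, 159.3 and 152.8 TPM with DMSO and at 125.7, 125.5 and 125.4 TPM with TVA. The means were 163.9 ± 13.9 and 125.5 ± 0.140 TPM (s.d., n = 3), and the mean fell by 23.4%. The log2 change was -0.38 (SE 0.059, 95% interval -0.52 to -0.24, limma adjusted P = 0.016), the 194th largest of the 351 genes that fell. Stat5a fell by 0.40 without DMSO replicate 2 (limma adjusted P = 0.0071) and by 0.34 after the GC correction (limma adjusted P = 0.0017) on the log2 scale. It passed under 12 of 15 alternatives and missed the threshold without TVA replicate 1, 2 or 3 (limma adjusted P = 0.072, 0.086 and 0.082), at a change of -0.38 each time.

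Stat5b lies beside Stat5a on chromosome 11 in the opposite orientation (chr11:100780731-100850724, minus strand) and encodes a closely similar protein. It was at 69.9, 58.1 and 59.2 TPM with DMSO and at 51.9, 52.7 and 52.1 TPM with TVA, again with all TVA libraries below all DMSO libraries. Its change was -0.25 (SE 0.069, 95% interval -0.41 to -0.09, limma adjusted P = 0.063). It passed under 5 of 15 alternatives: median-of-ratios scaling (limma adjusted P = 0.035), quantile normalization (0.040), the GC correction (-0.22, 0.024), and the omission of DMSO replicate 1 (0.031) or 2 (0.023). Since the paralogs share long stretches of sequence, reads of either may have been assigned to the other, and the split between them is uncertain. The sum of Stat5a and Stat5b is not free of that split, because TPM is scaled for transcript length. Median transcript lengths were 3605 bases for Stat5a and 5062 bases for Stat5b. In the DMSO libraries the sum reached 249.4, 217.3 and 212.0 TPM. The TVA libraries all lay lower, at 177.6, 178.2 and 177.5 TPM.

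Jak3 (chr8:71676296-71690575, plus strand), the kinase bound to the gamma chain, was at 64.4, 45.9 and 51.4 TPM with DMSO and at 43.4, 43.0 and 42.6 TPM with TVA. The DMSO libraries had a coefficient of variation of 17.6%, against 0.956% for the TVA libraries, and DMSO replicate 2 lay only slightly above the TVA libraries. The change was -0.31 (95% interval -0.55 to -0.06, limma adjusted P = 0.11). Without DMSO replicate 2 the change was -0.41 (limma adjusted P = 0.016), and without DMSO replicate 1, the highest, it was -0.17 (limma adjusted P = 0.075). Jak3 transcripts had the highest GC content of the 10 genes (60.8%). After the GC correction the values were 53.1, 48.1 and 49.3 TPM with DMSO and at 45.8, 45.7 and 45.8 TPM with TVA, a change of -0.13 (limma adjusted P = 0.082). After that correction 4 of the 10 genes passed, with Stat5b added, beside 10.3% of all genes tested.

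The DMSO libraries were the more variable group for these genes: the s.d. was higher with DMSO than with TVA for 9 of the 10, Il2ra being the exception. The share over all genes tested was not computed, so this may hold for genes in general. Without DMSO replicate 2, 6 of the 10 genes passed (Il2, Il2rg, Il21r, Jak3, Stat5a and Stat5b, 2 higher and 4 lower), beside 20.6% of all genes tested. Without TVA replicate 1, 2 or 3, only Il2 of the 10 genes passed, beside 125, 102 and 113 of all 10866 genes tested.

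**Figure D3:**
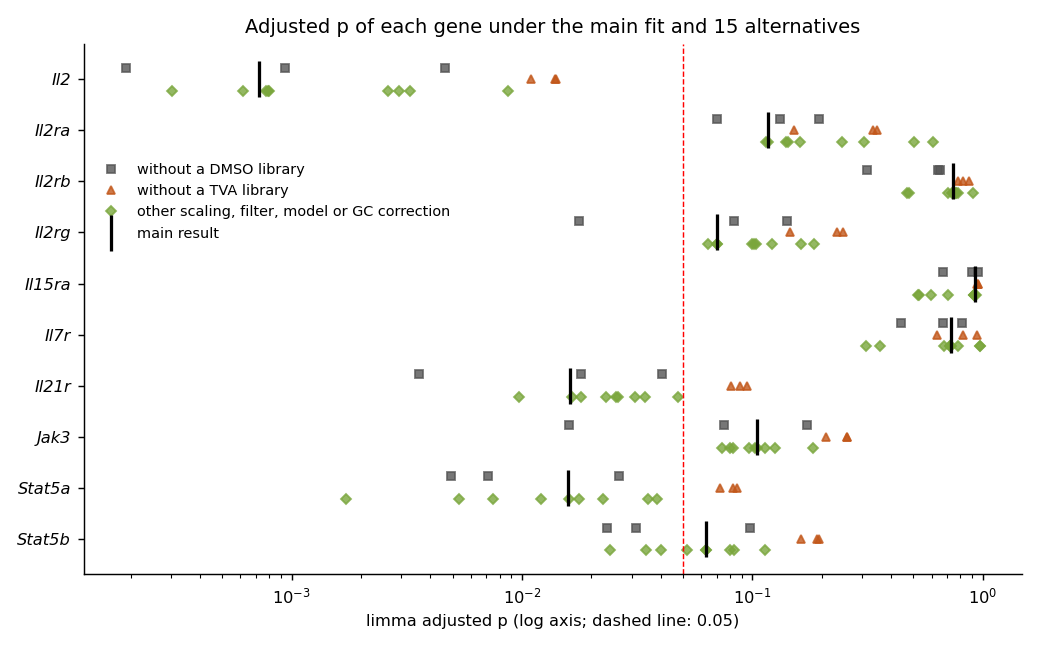
Adjusted P of each of the 10 genes (horizontal log axis) as reported (black bar) and under 15 alternatives: the omission of a DMSO library (grey squares), the omission of a TVA library (orange triangles), and other scalings, filters, models or the GC correction (green diamonds). The dashed line is 0.05. All points of Il2 lie left of the line, the orange triangles of Il21r and Stat5a lie right of it, and the points of Stat5b lie on both sides.

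By level, the order of the genes changed in a few places. With DMSO, Il2 was highest, followed by Il2rg, Il2ra and Il21r, whose ranges over the libraries did not overlap with those of their neighbours. Below them came Il2rb and Stat5a, which overlapped, Stat5b and Jak3, which overlapped, and then Il15ra and Il7r. With TVA, Il2rg was highest (492.7 ± 8.97 TPM), and Il2 overlapped with Il2ra (351.0 ± 10.2 TPM) in second place. Il21r, Il2rb, Stat5a, Stat5b, Jak3, Il15ra and Il7r followed in that order without overlap. Ratios within a library were compared for 3 pairs, with an exact two-sided permutation test for which 3 against 3 libraries allow no P below 0.1. Stat5a made up 72.0, 73.3 and 72.1% of the STAT5 sum with DMSO and 70.8, 70.4 and 70.6% with TVA, without overlap (exact permutation P = 0.1, adjusted over 3 ratios 0.15), within the limit on the split given above. The ratio of Il2rb to Il2rg was 0.372 ± 0.0139 with DMSO and 0.344 ± 0.0079 with TVA (s.d., n = 3, exact permutation P = 0.1, adjusted 0.15). The ratio of Il2ra to Il2rb was 1.97 ± 0.114 and 2.07 ± 0.0632 (s.d., n = 3, exact permutation P = 0.2, adjusted 0.2).

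Genes around the receptor were described from written lists. Of the 73 genes of these lists that are not among the 10, 67 were tested and 8 passed (2 higher and 6 lower, 11.9%), with a median change of 0.0039. Of 12 kinases, STATs and adaptors below the receptor, 11 were tested and 0 passed under limma (2 had an unadjusted P below 0.05), with a median change of 0.06. Jak1, the kinase that works with JAK3, was at 116.5, 112.2 and 111.6 TPM with DMSO and at 120.8, 125.6 and 124.1 TPM with TVA (log2 change 0.12, limma adjusted P = 0.074). After the GC correction its change was 0.11 (limma adjusted P = 0.047).

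Of 18 genes known to be raised by IL-2 or STAT5, 17 were tested, 1 rose and 2 fell (9 had an unadjusted limma P below 0.05, median -0.09). Cish, a feedback inhibitor that STAT5 induces, was at 136.1, 125.9 and 120.7 TPM with DMSO and at 115.1, 114.5 and 113.6 TPM with TVA (log2 change -0.15, limma adjusted P = 0.081). The groups did not overlap, and after the GC correction the change was -0.11 (limma adjusted P = 0.045). Socs3, another feedback inhibitor, fell from 24.1 ± 2.54 to 18.8 ± 0.402 TPM (s.d., n = 3, log2 change -0.33, limma adjusted P = 0.037). Its transcripts are rich in GC (62.9%), and after the GC correction its change was -0.02 (limma adjusted P = 0.83). Lta, the cytokine lymphotoxin alpha, fell from 220.3 ± 8.65 to 190.9 ± 3.42 TPM (s.d., n = 3, log2 change -0.21, limma adjusted P = 0.028). Prf1, the pore-forming protein perforin of cytotoxic granules, rose from 52.2 ± 6.07 to 66.4 ± 2.05 TPM (s.d., n = 3, log2 change 0.35, limma adjusted P = 0.038). Gzmb, the granule protease granzyme B, was named here after its values were seen: it was the most abundant gene of this list, at 3083 ± 115.2 and 3118 ± 42.9 TPM (log2 change 0.02, 95% interval -0.08 to 0.12, limma adjusted P = 0.81).

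Genes known to be lowered by IL-2 or STAT5 had a median change of 0.13. Bcl6, a transcriptional repressor that STAT5 opposes, was at 4.98 ± 0.311 and 5.61 ± 0.235 TPM (s.d., n = 3, log2 change 0.14, limma adjusted P = 0.16).

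Of 18 transcription factors known to act at the Il2 promoter, all were tested and 1 fell (8 had an unadjusted limma P below 0.05, median 0.0042). Nfkb1, the precursor of an NF-κB subunit, fell from 379.9 ± 24.0 to 326.4 ± 4.27 TPM (s.d., n = 3, log2 change -0.22, limma adjusted P = 0.041). Nfatc1, one of the calcium-regulated factors that recognise the NFAT core shown above, was at 59.0, 47.7 and 47.6 TPM with DMSO and at 47.5, 48.4 and 47.2 TPM with TVA (log2 change -0.10, limma adjusted P = 0.42). The Jun genes were named after their values were seen. Jund was at 237.6, 61.7 and 165.0 TPM with DMSO and at 49.4, 48.0 and 45.4 TPM with TVA (log2 change -1.48, 95% interval -2.45 to -0.51, limma adjusted P = 0.064). Junb was at 426.4, 198.6 and 345.7 TPM with DMSO and at 185.7, 170.4 and 169.5 TPM with TVA (log2 change -0.81, limma adjusted P = 0.071). Transcripts of both are rich in GC (67.15% for Jund and 62.69% for Junb). After the GC correction the change was -0.73 for Jund (limma adjusted P = 0.040) and -0.52 for Junb (limma adjusted P = 0.057). In the TPM of both genes as deposited, DMSO replicate 2 lay close to the TVA libraries and far from the other DMSO libraries. Socs1, a feedback inhibitor from the list of genes raised by IL-2 and named after its values were seen, had the same order at 125.8, 42.7 and 93.4 TPM with DMSO and at 43.9, 41.0 and 41.5 TPM with TVA (log2 change -0.90, limma adjusted P = 0.12), with DMSO replicate 2 inside the TVA range. Il2 did not share this order, since DMSO replicate 2 held its highest value.

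Of 8 RNA-binding proteins known to control the decay of cytokine mRNA, 1 fell (2 had an unadjusted limma P below 0.05, median -0.05). Zc3h12a, the endonuclease regnase-1, which cleaves Il2 mRNA among others, fell from 29.6 ± 2.43 to 24.4 ± 0.432 TPM (s.d., n = 3, log2 change -0.26, limma adjusted P = 0.041). Zfp36, the decay factor tristetraprolin, was at 70.4 ± 1.68 and 70.4 ± 2.90 TPM (log2 change -0.0020, limma adjusted P = 0.98). Of 6 negative regulators of the receptor and the JAK kinases, 0 passed under limma (3 had an unadjusted P below 0.05, median 0.03). Ptpn2, a phosphatase that acts on JAK and STAT proteins, was at 16.4 ± 0.630 and 16.5 ± 0.256 TPM (log2 change 0.0099, limma adjusted P = 0.89). For Socs3, Lta, Prf1, Nfkb1 and Zc3h12a the adjusted P reached 0.14 to 0.17 when a library was left out, and the calls were lost without any 1 of the TVA libraries. Those of Socs3, Prf1, Nfkb1 and Zc3h12a were also lost without DMSO replicate 3.

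**Figure D4:**
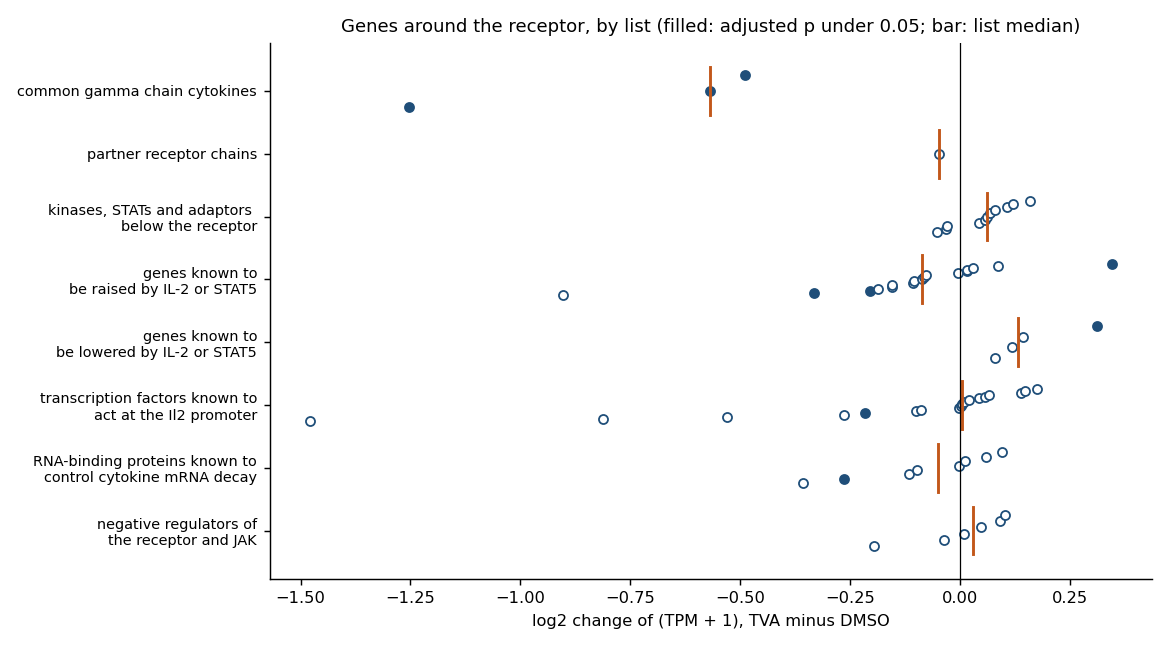
Change of each tested gene in log2(TPM + 1), TVA minus DMSO, for 8 lists of genes around the receptor, with the list median as an orange bar. Filled points passed the adjusted P of 0.05. All 3 gamma chain cytokines (Il2 included) are filled and lie left of 0, with a median of -0.57, while the medians of the other lists lie between -0.09 and 0.13, and the open point at -1.48 is Jund.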

How the data were processed

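The data were 6 RNA-seq libraries, made per the labels with a SMARTER mRNA-Seq kit. The submitters' processing notes name STAR, RSEM and the genome build mm10, and versions are not given in the sources used here. The authors deposited a table of TPM per gene symbol with 2 decimals, used here as deposited. Of its 24589 genes, 7840 were listed at 0 in every library, and between 10778 and 10870 reached 1 TPM in a library. Groups and replicate numbers came from the sample titles, and columns were matched to samples by their descriptions.

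Genes with at least 1 TPM in at least 3 libraries were compared on log2(TPM + 1) with limma 3.58.1 (trend, two-sided) in R 4.3.3, with Benjamini–Hochberg adjustment over 10866 genes. The fit was tested on simulated data. The 10 genes, the lists and the tests were chosen with earlier results of these data known. Named were the 10 genes and, of each list, the genes that passed the threshold (at most 6) and the gene written first; those named after their values were seen are marked. Some genes of the lists are not reported here. Of 3 ratios, P values are exact permutation tests.

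Alternatives were a pseudocount of 0.1, median-of-ratios scaling, all genes above 0 TPM, only genes averaging at least 10 TPM, quantile normalization, no variance trend, a replicate block, a GC correction with and without that block, and the omission of each library in turn. For the GC correction, deviations of genes from their own mean were smoothed against GC content in each library (loess, span 0.5) and the curve was subtracted (GC as median over GENCODE vM21 transcripts, available for 97.4% of tested genes). Coordinates are from GENCODE vM21 (mm10, 1-based), and promoter sequences from RefSeq on GRCm38.p6. Figures were drawn with matplotlib 3.10.9.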

Additional observations from a re-analysis of the deposited data

How the results depend on the processing

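Of 150 changes of the 10 genes under alternatives, 130 kept their direction and their side of the threshold, 6 no longer passed, 7 newly passed and 7 turned direction. The number of genes that passed was 925 of all tested. It was 494 with all genes above 0 TPM, 608 with a mean of at least 10 TPM, 218 with the replicate block, 550 with the GC correction and the block, and 102 to 2242 without a replicate (lowest without TVA replicate 2, highest without DMSO replicate 2). Of the 10 genes, 3 passed, 3 also with the replicate block, and 1 to 6 without a replicate. Of the list genes, 8 passed, 4 with all genes above 0 TPM, 2 with the replicate block and 1 to 20 without a replicate. With the replicate block, Il4, Socs3, Lta, Prf1, Nfkb1 and Zc3h12a did not pass (limma adjusted P = 0.052, 0.066, 0.057, 0.050, 0.075 and 0.061). Deviations of same-numbered libraries correlated at 0.16, 0.03 and -0.08, so the numbers are not taken to pair the libraries.

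Changes that turned direction were small and did not pass in any setting. With median-of-ratios scaling, Il2rb was at -0.010, Il7r at -0.0040 and Ptpn2 at -0.026, and with quantile normalization Ptpn2 was at -0.020. With the GC correction, with or without the block, Il7r was at -0.062, Ptpn2 at -0.073 and Zfp36 at 0.020. Without a replicate, Il2rb ranged from -0.027 to 0.070, Il15ra from -0.024 to 0.0094, Il7r from -0.018 to 0.068, Il4ra from -0.11 to 0.028, Nfatc1 from -0.15 to 0.0016, Zfp36 from -0.032 to 0.026 and Ptpn2 from -0.016 to 0.036. The cause was not tested. TPM keeps no depth, so the precision of genes near the filter is unknown.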

Other observations

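Genes whose levels followed those of Il2 over the 6 libraries were described by Pearson's r of log2(TPM + 1) with Il2, among 7561 tested genes averaging at least 10 TPM. Since Il2 separates the groups, such an r largely reflects the difference between TVA and DMSO, and no test was made. The genes most like Il2 were Ifitm2 (r = 0.998), which encodes an interferon-induced membrane protein, Map3k8 (0.997), a kinase upstream of ERK, Cd200 (0.996), an inhibitory surface ligand, Glipr2 (0.996) and Slamf6 (0.995), a surface receptor of T and NK cells. Ifitm2 went from 128.7 ± 5.49 TPM with DMSO to 73.8 ± 2.95 TPM with TVA, and Cd200 from 178.0 ± 7.11 to 124.9 ± 2.48 TPM (s.d., n = 3). The most opposite were Srxn1 (-0.998), which encodes the antioxidant enzyme sulfiredoxin, Lrrc57 (-0.998), Prmt9 (-0.997), an arginine methyltransferase, Samhd1 (-0.997), a dNTP hydrolase, and Sec22b (-0.996), a vesicle fusion protein. Samhd1 went from 106.2 ± 2.00 to 136.5 ± 0.954 TPM and Srxn1 from 14.3 ± 0.106 to 18.8 ± 0.0854 TPM (s.d., n = 3). Among the genes of the receptor and its transducers, Stat5a was closest to Il2 in this measure (0.93, in place 112) and Il21r most opposite (-0.94).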
